A study of Mus musculus with 4 samples.

Results

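The genes described here are the ligands and receptors of the tumour necrosis factor (TNF) superfamily on arrays of mouse dendritic cells. They were chosen by name, as every gene whose symbol in the deposited table begins with Tnfsf or Tnfrsf, together with Tnf, Lta, Ltb, Ltbr and Fas. This gave 35 genes, 13 ligands and 22 receptors, of 22221 genes with a symbol in the table. Each was read by 1 probe set, and the deposited annotation marks 0 of the 35 as cross-hybridising. Bone marrow cells of C57Bl/6 mice had been differentiated with GM-CSF and kept for 16 h in normoxia with media, in normoxia with poly I:C (10 µg/ml), in hypoxia with media, or in hypoxia with the same stimulus. The labels give hypoxia as 0.5% without naming the gas, and say nothing of how many mice or cultures stand behind an array. The stimulus, a synthetic analogue of viral double-stranded RNA, is sensed by TLR3 and by cytosolic receptors. With a single Affymetrix Mouse Gene ST 1.0 array of total RNA per condition, no value here has a replicate error and no difference has a test, and precision is limited by that number.

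Ligands of the TNF superfamily are mostly trimeric proteins on the surface of a cell or shed from it, and they act by clustering their receptors on the same or a neighbouring cell. Some receptors carry a death domain and can start caspase-dependent or necroptotic cell death, whereas others recruit TRAF adaptors and activate NF-kB. Dendritic cells use several ligands of the family as co-stimulatory signals to T cells, and TNF itself is one of their main inflammatory cytokines. In bulk RNA, fewer cells of a type and less RNA per cell cannot be told apart.

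Levels are given as linear RMA intensities, and differences are log2 differences between 2 arrays. A gene was taken as measurable when it reached intensity 16 on at least 1 array, and as higher or lower when 2 arrays differed at least 2-fold. The median intensity of the 4 arrays lay between 3.90 and 4.09, so values of about 4 are near the middle of each array, where most genes are dim. Of the 35 genes 18 reached 16, or 51.4%, against 31.0% of all genes. They were 7 of 13 ligands and 11 of 22 receptors. Of these 18, 10 reached 16 on all 4 arrays and 8 on some only. A gene admitted through 1 condition favours a difference in that direction, so counts over the 18 genes are given as descriptions. The dimmest gene inside the limit was Tnfrsf22, at up to 16.9, and the brightest outside it was Tnfrsf13b, at up to 9.74. In at least 1 of the 4 comparisons that changed a single factor, 11 of the 18 genes differed 2-fold, and 28.0% of all genes reaching 16 did so. Over all genes reaching 16, the difference of differences, which takes in all 4 arrays, had a robust SD of 0.44, or 0.31 per single difference if no gene responded to the combination.

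Dendritic cell and macrophage transcripts were present on all 4 arrays and those of lymphocytes were not measurable. Of 12 dendritic cell markers 9 reached 16, among them Itgax, which encodes CD11c, at 268.1 to 615. Flt3, Zbtb46 and Batf3 did not, at up to 3.83, 6.21 and 11.2. The summed intensity of the list lay between 3852 and 5191. That sum is mostly Cd74, H2-Aa, H2-Ab1 and H2-Eb1, at 1000, 902.2, 630.6 and 539.3 in normoxia with media. All 10 macrophage markers reached 16, with sums of 5540 to 6216. Of 8 neutrophil markers Mmp8 alone reached it, with sums of 465 and 605 in media and 136.5 and 121.0 with poly I:C. None of 7 T cell, 5 B cell, 5 natural killer cell, 5 mast cell or basophil and 4 stromal markers on the array reached 16, the highest single value being 8.63 for a stromal marker. With both treatments against neither, the dendritic cell list had a median log2 difference of 0.40, with 1 of 9 genes 2-fold higher (H2-Ab1, 1.15) and 1 lower (Itgax, -1.20). That is 11.1% each way, near the all-gene shares of 11.6% and 14.0%. In hypoxia against normoxia with poly I:C 3 of the 9 were lower, Ccr7 (-1.26), Cd83 (-1.25) and Irf8 (-1.06), against 3.21% of all genes reaching 16. The same 3 genes were those 2-fold higher with poly I:C in normoxia, at 1.90, 1.545 and 1.46, against 8.42% of all genes. With both treatments against neither they stood at 0.64, 0.29 and 0.40. The macrophage sum is mostly Lyz2 (2856 to 3543), and single macrophage markers moved with the treatments. Mrc1 read 131.5 and 50.1 in media and 11.6 and 4.81 with poly I:C, in normoxia and hypoxia respectively, and Fcgr1 read 44.7 and 21.1 in media and 666 and 649.9 with poly I:C. Adgre1 (-1.78) and Mertk (-1.54) were lower and Cd14 (1.89) was higher with both treatments. The part of these differences in the results below was not tested.

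**Figure D1:**
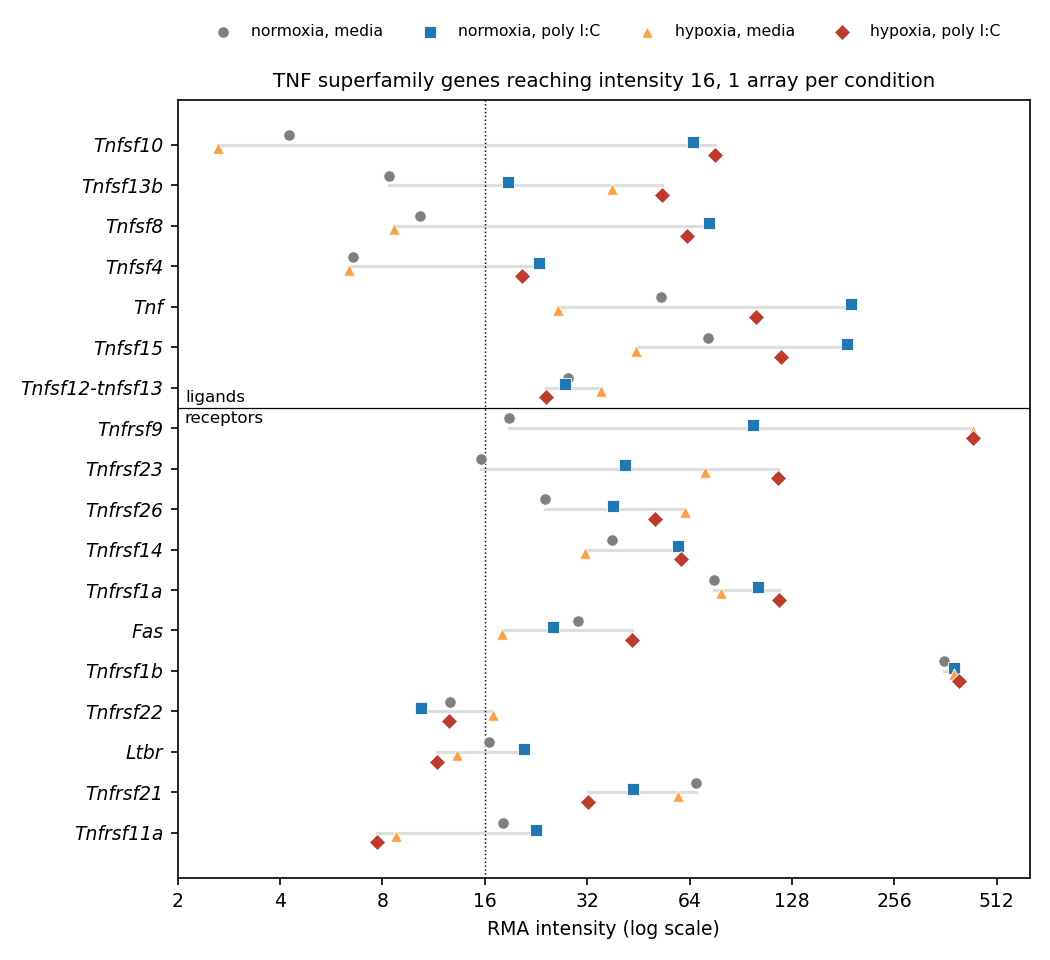
RMA intensity on a log scale (x axis) of the 18 TNF superfamily genes that reached 16 on at least 1 array (rows, ligands above the line and receptors below it), with 1 point per array; points are set apart vertically for legibility, grey bars span lowest to highest, and the dotted line marks 16. For Tnfsf10, Tnfsf8, Tnfsf4, Tnf and Tnfsf15 both poly I:C arrays lie to the right of both media arrays, whereas for Tnfrsf9, Tnfrsf23 and Tnfsf13b both hypoxic arrays lie to the right of both normoxic ones.

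Poly I:C was compared with media at each oxygen level to ask which members differ with double-stranded RNA. In normoxia 8 of the 18 genes passed 2-fold upward and 0 downward (median log2 difference 0.65), against 8.42% higher and 6.82% lower over all genes reaching 16 (median -0.10). After centring on reference genes 13 were higher and 0 lower (median 1.44), and the all-gene median moved to 0.69. With an offset of 16 added to every intensity 5 were higher. Of all 6890 genes, 2008 were higher and 106 lower after centring, and 369 were higher with the offset. In hypoxia 6 were higher and 0 lower (median 0.52), against 9.87% and 8.10% over all genes (median -0.11). By role, 6 of the 7 measurable ligands were higher in normoxia and 5 in hypoxia, while 2 and 1 of the 11 measurable receptors were. The 5 genes higher at both oxygen levels were all ligands, namely Tnfsf10, Tnfsf8, Tnf, Tnfsf4 and Tnfsf15. The comparisons in normoxia and in hypoxia share no array, but the floor of 16 was applied over all 4 arrays. Tnfsf10, Tnfsf8 and Tnfsf4 reached 16 on the poly I:C arrays only, so they were admitted through the condition in which they are high. The counts by role include them.

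Tnfsf10 encodes TRAIL, a ligand that can trigger apoptosis through death receptors and is known as an interferon-induced gene. It read 4.24 in normoxia with media, 65.6 in normoxia with poly I:C, 2.63 in hypoxia with media and 76.2 in hypoxia with poly I:C. Only the poly I:C arrays were above 16, and the log2 differences were 3.95 in normoxia and 4.86 in hypoxia. The media values are near the array medians, so the size of these folds rests on a dim denominator. With 16 added to every intensity before taking logs they were 2.01 and 2.31.

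Tnfsf8 encodes CD30 ligand, which engages CD30 on activated lymphocytes. It read 10.3 and 8.66 in media in normoxia and hypoxia, and 73.0 and 62.9 with poly I:C, log2 differences of 2.83 and 2.86. Tnfsf4 encodes OX40 ligand, a co-stimulator of T cells. It read 6.56 and 6.39 in media and 23.1 and 20.6 with poly I:C (1.82 and 1.69), and with the offset of 16 its differences were 0.79 and 0.71, under 2-fold. Both genes were below 16 in media, and their values changed little with oxygen at either stimulus (between -0.25 and -0.04).

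Tnf read 52.6 in normoxia with media, 190.2 in normoxia with poly I:C, 26.3 in hypoxia with media and 100.4 in hypoxia with poly I:C. Stimulation against media gave 1.85 in normoxia and 1.93 in hypoxia. Tnfsf15 encodes TL1A, a ligand of death receptor 3 that co-stimulates T cells. It read 72.6, 185.7, 44.6 and 118.9 in the same order, with 1.36 and 1.42 for poly I:C. On each oxygen background the poly I:C array was above the media array for both genes, and on each stimulus the hypoxic array was below the normoxic one. Tnfsf15 and Tnfsf8 are adjacent protein-coding genes on chromosome 4 in the RefSeq gene table.

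The neighbours of the other poly I:C-higher ligands were dim. Lta and Ltb flank Tnf on chromosome 17, encode the lymphotoxins, and read at most 3.23 and 4.35. Tnfsf18, which encodes GITR ligand and lies next to Tnfsf4 on chromosome 1, read 1.76 and 2.21 in media and 4.17 and 3.64 with poly I:C. Those values never reached 16, and the gene counts as higher in normoxia (1.24) only when no level is required. The remaining measurable ligand gene, listed as Tnfsf12-tnfsf13, is the read-through of the neighbouring genes for TWEAK and APRIL. It read 28.0, 27.5, 35.2 and 24.2 across the 4 conditions and was within 2-fold throughout. Tnfsf12 and Tnfsf13 are not among the 35 genes under their own symbols. Whether the probe set separates the read-through from their transcripts was not tested.

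**Figure D2:**
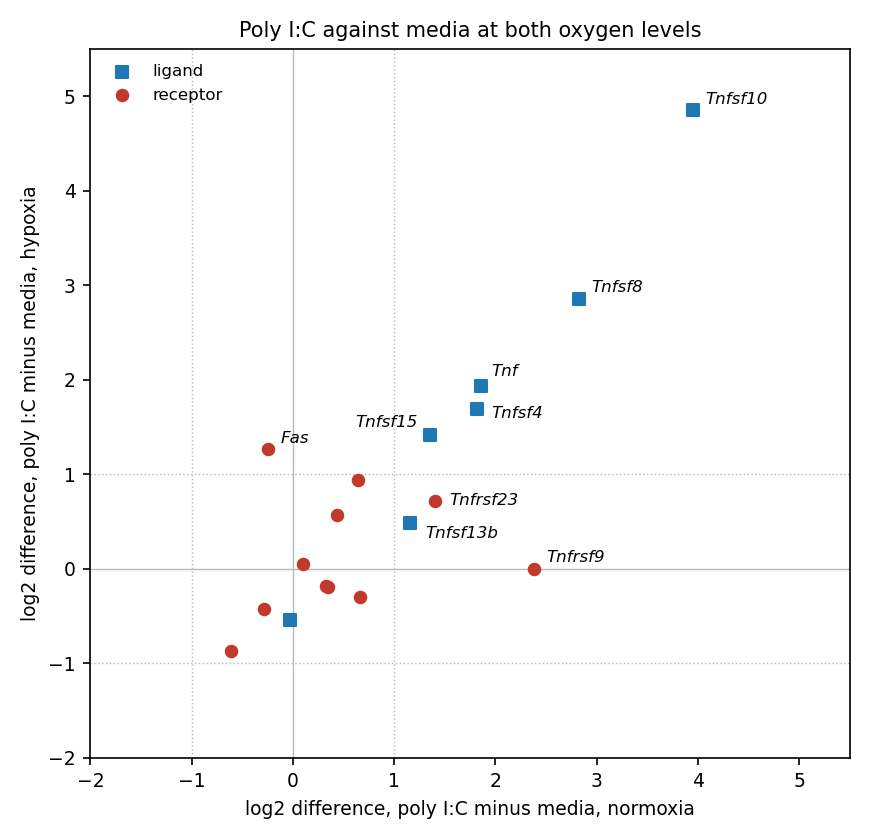
Log2 difference between poly I:C and media in normoxia (x axis) and in hypoxia (y axis) for the 18 measurable genes, ligands as squares and receptors as circles, 1 array per condition; dotted lines mark 2-fold. Tnfsf10, Tnfsf8, Tnf, Tnfsf4 and Tnfsf15 pass 2-fold on both axes, whereas Tnfrsf9 lies at 2.38 in normoxia and 0.00 in hypoxia.

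Promoter letters are shown for Tnfsf10 and Tnfsf8, the ligands with the highest poly I:C differences. RefSeq windows of build GRCm38.p6 were matched for 29 of the 35 genes and for 15 of the 18 measurable ones, 4 genes having 2 starts, and the 250 bases before the start were searched on both strands. The motifs were the core of the interferon-stimulated response element, a kappaB-like motif bound by NF-kB, both of 10 letters, and ACGTG and GCGTG, cores of the hypoxia response element. Capitals mark every match, in the orientation of the gene, and a match is a description of letters only. Tnfsf10 holds none of the 4 motifs here, and Tnfsf8 holds GCGTG on the opposite strand, 74 to 70 bases before the start.
Tnfsf10, chr3:27316827-27317076, plus strand: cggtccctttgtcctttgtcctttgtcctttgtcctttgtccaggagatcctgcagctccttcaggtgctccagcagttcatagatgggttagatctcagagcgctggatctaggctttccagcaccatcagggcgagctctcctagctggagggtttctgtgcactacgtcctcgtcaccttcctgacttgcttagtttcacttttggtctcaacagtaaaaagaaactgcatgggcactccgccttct
Tnfsf8, chr4:63861285-63861534, minus strand: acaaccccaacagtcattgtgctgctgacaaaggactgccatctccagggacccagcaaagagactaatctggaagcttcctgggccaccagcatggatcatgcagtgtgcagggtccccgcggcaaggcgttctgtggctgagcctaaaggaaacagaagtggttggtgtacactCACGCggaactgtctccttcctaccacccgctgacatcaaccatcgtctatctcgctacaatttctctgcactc
Of the 8 genes higher with poly I:C in normoxia 7 had a window, of which 1, Tnfsf13b, holds the interferon-stimulated core and 1, Tnfrsf9, holds the kappaB-like motif. Over all 32851 windows in the table the shares are 2.98% and 17.6%, and over the 33 windows of superfamily genes 12.1% and 24.2%. These shares count windows, whereas the counts before them are of genes. The interferon-stimulated core was found for Tnfrsf14, Tnfrsf17, Tnfrsf1b and Tnfsf13b. Tnfrsf17 stayed below 16 on every array and could not be counted. Of the 3 measurable genes with the core only Tnfsf13b was 2-fold higher with poly I:C in normoxia.

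Hypoxia was compared with normoxia in media and with poly I:C to ask what oxygen does to the family without and with stimulation. In media 4 of the 18 genes were higher and 2 lower (median -0.11), against 3.74% higher and 5.36% lower over all genes reaching 16 (median -0.07). With poly I:C 3 were higher and 1 lower (median 0.04), against 3.0% and 3.21% (median -0.06). The split was 4 to 1 in media with cyclic loess scaling, and 4 to 0 in media and 3 to 3 with poly I:C after centring on reference genes. Over all genes it was 266 to 357 of 6923 in media with cyclic loess. After centring it was 557 to 178 in media and 134 to 418 with poly I:C, of 6890. Tnfrsf9, Tnfrsf23 and Tnfsf13b were higher in both comparisons, Tnfrsf26 in media only, and Tnfrsf11a was lower in both. Whether the response of Tnfrsf26 differs between media and poly I:C was not tested.

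Tnfrsf9 encodes 4-1BB (CD137), a co-stimulatory receptor best known on activated T cells and also found on dendritic cells. It read 18.8 in normoxia with media, 98.0 in normoxia with poly I:C, 435.6 in hypoxia with media and 436.6 in hypoxia with poly I:C. The hypoxic arrays stood together above both others, 4.53 above normoxia in media and 2.16 above it with poly I:C. Poly I:C against media gave 2.38 in normoxia and 0.00 in hypoxia, so the difference of differences was -2.38. It kept that sign under the scalings tried (-2.39 with cyclic loess and -2.93 after centring). The gene for its ligand, Tnfsf9, read 2.73, 4.13, 4.32 and 4.70 in the same order of conditions and stayed near the array medians.

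Tnfrsf23, Tnfrsf22 and Tnfrsf26 are adjacent on chromosome 7. In the mouse, the first 2 are known to encode decoy receptors for TRAIL that lack a death domain. Tnfrsf23 read 15.6 in normoxia with media, 41.3 in normoxia with poly I:C, 70.9 in hypoxia with media and 116.7 in hypoxia with poly I:C. It was higher in hypoxia by 2.18 in media and 1.50 with poly I:C, and higher with poly I:C by 1.40 in normoxia (0.86 with the offset of 16), with 0.72 in hypoxia. Tnfrsf26 read 24.1, 38.0, 62.1 and 50.7 in that order, with 1.37 for hypoxia in media (0.96 with the offset of 16) and 0.41 with poly I:C. Tnfrsf22 read 12.6, 10.4, 16.9 and 12.5, reached 16 in hypoxia with media alone and was within 2-fold throughout. The death receptor for TRAIL, Tnfrsf10b, stayed between 2.64 and 3.16. How far the probes separate these related neighbours was not tested.

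Tnfsf13b encodes BAFF, a survival factor for B cells that myeloid cells produce, and it is the ligand that differed with oxygen in both comparisons. It read 8.36 in normoxia with media, 18.7 in normoxia with poly I:C, 37.9 in hypoxia with media and 52.9 in hypoxia with poly I:C. Hypoxia gave 2.18 in media and 1.50 with poly I:C, and poly I:C gave 1.16 in normoxia and 0.48 in hypoxia. With the offset of 16, poly I:C in normoxia (0.51) and hypoxia with poly I:C (0.99) were under 2-fold. The order of the arrays is the same as for Tnfrsf23, and in both genes the highest value came with the 2 treatments together. The BAFF receptor genes Tnfrsf13b, Tnfrsf13c and Tnfrsf17 read at most 9.74, 5.71 and 3.10.

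Genes lower in hypoxia were Tnfrsf11a and, at the limit, Tnf. Tnfrsf11a encodes RANK, a receptor of dendritic cells and osteoclast precursors. It read 18.1 and 22.7 in normoxia with media and poly I:C, and 8.75 and 7.71 in hypoxia, log2 differences of -1.05 and -1.56. Only the normoxic arrays were above 16, and with 16 added to every intensity the differences were -0.46 and -0.71. Its ligand gene Tnfsf11, encoding RANKL, read 7.06 to 9.41, and the gene for the decoy receptor of RANKL, Tnfrsf11b, at most 3.11. Tnf was at -1.001 for hypoxia in media, just inside 2-fold, and at -0.92 with poly I:C, just outside it. In media its value was -0.95 with cyclic loess, -0.64 after centring on reference genes and -0.70 with the offset of 16. Tnfsf15 was at -0.70 and -0.64.

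**Figure D3:**
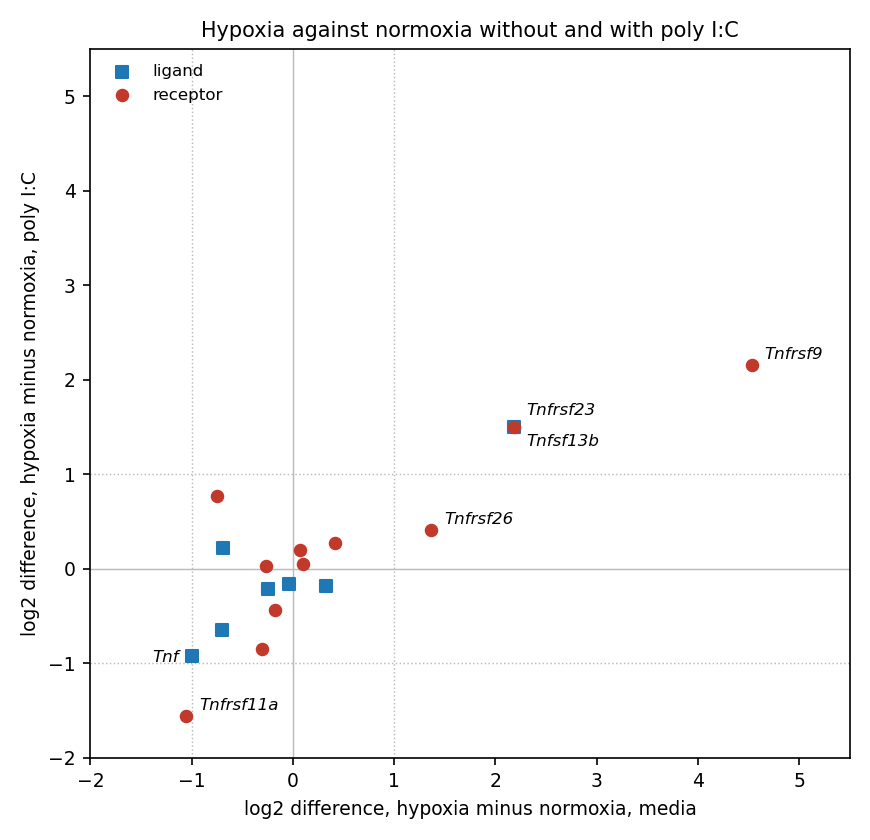
Log2 difference between hypoxia and normoxia in media (x axis) and with poly I:C (y axis) for the 18 measurable genes, ligands as squares and receptors as circles, 1 array per condition; dotted lines mark 2-fold. Tnfrsf9 (4.53 and 2.16), Tnfrsf23 and Tnfsf13b (2.18 and 1.50 each) lie at the upper right and Tnfrsf11a (-1.05 and -1.56) at the lower left.

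The promoters of the genes higher in hypoxia at both stimuli are shown because these genes differ together with oxygen. Tnfrsf9 has 2 RefSeq starts. Its first window holds none of the 4 motifs, and the second, at the downstream start, holds a kappaB-like match 42 to 33 bases before the start, found on both strands. Tnfrsf23 holds GCGTG 43 to 39 bases before the start. The downstream of the 2 Tnfsf13b windows holds the interferon-stimulated core 16 to 7 bases before the start, and the upstream one holds none of the 4.
Tnfrsf9 first start, chr4:150919905-150920154, plus strand: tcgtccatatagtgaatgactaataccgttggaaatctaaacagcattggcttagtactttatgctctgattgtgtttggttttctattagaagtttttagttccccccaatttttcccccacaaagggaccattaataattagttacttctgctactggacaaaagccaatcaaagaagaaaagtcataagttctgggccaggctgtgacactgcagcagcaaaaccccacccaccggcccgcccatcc
Tnfrsf9 second start, chr4:150927749-150927998, plus strand: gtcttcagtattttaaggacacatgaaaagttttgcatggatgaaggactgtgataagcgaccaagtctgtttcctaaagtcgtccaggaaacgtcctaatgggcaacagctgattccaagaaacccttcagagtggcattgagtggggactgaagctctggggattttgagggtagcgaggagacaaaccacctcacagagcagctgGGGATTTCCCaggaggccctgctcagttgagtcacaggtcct
Tnfrsf23, chr7:143685876-143686125, minus strand: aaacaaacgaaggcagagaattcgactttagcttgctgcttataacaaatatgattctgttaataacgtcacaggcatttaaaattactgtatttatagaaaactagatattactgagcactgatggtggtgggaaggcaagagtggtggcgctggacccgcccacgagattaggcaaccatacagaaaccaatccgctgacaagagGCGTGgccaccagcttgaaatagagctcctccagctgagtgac
Tnfsf13b second start, chr8:10006383-10006632, plus strand: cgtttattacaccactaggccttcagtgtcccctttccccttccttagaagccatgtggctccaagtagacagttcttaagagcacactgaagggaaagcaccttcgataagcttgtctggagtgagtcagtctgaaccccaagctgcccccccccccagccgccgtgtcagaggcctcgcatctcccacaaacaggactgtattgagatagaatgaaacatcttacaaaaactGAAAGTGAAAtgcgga
Of the 4 genes higher with hypoxia in media 3 had a window, of which 0 hold ACGTG and 1 holds GCGTG. Over all windows the shares are 16.6% and 28.2%. These windows end at the start, and hypoxia response elements can lie elsewhere, which was not searched.

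Receptors for TNF itself stayed within 2-fold. Tnfrsf1a encodes TNF receptor 1, which carries a death domain, and read 75.3, 101.9, 79.0 and 117.1 in normoxia with media, normoxia with poly I:C, hypoxia with media and hypoxia with poly I:C. Both poly I:C arrays were above both media arrays, with log2 differences of 0.44 in normoxia and 0.57 in hypoxia. Tnfrsf1b encodes TNF receptor 2, which has no death domain and signals through TRAF2. It read 357.6, 382.6, 383.6 and 396.6, and no comparison exceeded 0.15. The ligand Tnf thus spanned 26.3 to 190.2 over arrays on which Tnfrsf1b spanned 357.6 to 396.6.

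The remaining measurable receptors gave 1 further difference of 2-fold in a single-factor comparison. Fas, the death receptor for Fas ligand, read 30.2 in normoxia with media, 25.4 in normoxia with poly I:C, 18.0 in hypoxia with media and 43.4 in hypoxia with poly I:C. Stimulation against media gave -0.25 in normoxia and 1.27 in hypoxia (0.81 with the offset of 16), and hypoxia against normoxia gave -0.74 in media and 0.78 with poly I:C. Ltbr, the lymphotoxin beta receptor, read 16.4, 20.9, 13.2 and 11.6, with -0.31 and -0.85 for hypoxia. Tnfrsf14 encodes HVEM, the receptor of LIGHT. It read 37.8 and 31.5 in media and 59.1 and 60.3 with poly I:C, with 0.64 in normoxia and 0.94 in hypoxia. Tnfrsf21 encodes death receptor 6 and read 66.8, 43.6, 59.0 and 32.2, highest in normoxia with media and lowest in hypoxia with poly I:C (-1.05).

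With both treatments against neither, 7 of the 18 genes were higher and 2 lower (median 0.69), against 11.6% and 14.0% of all genes reaching 16 (median -0.14). The split was 8 to 1 with cyclic loess scaling and 12 to 0 after centring on reference genes. Over all genes it was 962 to 766 of 6923 with cyclic loess and 1698 to 336 of 6890 after centring. The higher genes were Tnfrsf9 (4.53), Tnfsf10 (4.17), Tnfrsf23 (2.90), Tnfsf13b (2.66), Tnfsf8 (2.61), Tnfsf4 (1.65) and Tnfrsf26 (1.07). The lower ones were Tnfrsf11a (-1.23) and Tnfrsf21. Tnf was at 0.93 and Tnfsf15 at 0.71 in this comparison. It shares the untreated array with the single treatments in normoxia and in media, so its values are not independent of theirs.

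The hypoxia difference under poly I:C less that in media, the difference of differences, passed 2-fold for 2 of the 18 genes, Tnfrsf9 (-2.38) and Fas (1.52). Over all genes reaching 16, 4.47% were higher and 2.42% lower. After centring on reference genes the counts were 0 higher and 7 lower, and the all-gene median then stood at -0.56 in place of 0.00. Of all 6890 genes, 100 were higher and 1105 lower after that centring. For the 5 ligands higher with poly I:C at both oxygen levels the values were 0.90 (Tnfsf10), 0.08 (Tnf), 0.06 (Tnfsf15), 0.04 (Tnfsf8) and -0.13 (Tnfsf4).

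Members that stayed below 16 on every array were 6 ligands and 11 receptors. Besides those already described, they were Tnfsf14 at up to 3.03, Tnfrsf19, Tnfrsf8, Tnfrsf25 and Tnfrsf4 at up to 5.47, Tnfrsf12a at up to 6.87, and Tnfrsf18, which encodes GITR. Tnfrsf18 read 4.57 and 4.51 in normoxia and 8.16 and 8.24 in hypoxia, differences of 0.84 and 0.87 at dim signal. At these intensities a difference was not detectable with any confidence on single arrays.

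Genes of the family with other symbols were followed as a second list of 10, of which Cd40 alone reached 16. CD40 receives the T cell signal that licenses dendritic cells. Cd40 read 6.30 in normoxia with media, 60.5 in normoxia with poly I:C, 5.45 in hypoxia with media and 51.5 in hypoxia with poly I:C. The poly I:C differences were 3.26 and 3.24, and the media values were near the middle of the arrays. Cd40 reached 16 on the poly I:C arrays only, so it was admitted through the condition in which it is high. Cd40lg, Cd27, Cd70, Fasl, Ngfr, Eda, Edar, Eda2r and Relt stayed below 16.

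Downstream of the receptors, 48 of 55 listed signalling genes reached 16. With poly I:C 8 were higher in normoxia (median 0.24) and 12 in hypoxia (median 0.48), and 0 were lower in either. These are 16.7% and 25.0% of the 48, against 8.42% higher and 6.82% lower over all genes in normoxia and 9.87% and 8.10% in hypoxia. The count in normoxia was 24 after centring on reference genes and 4 with the offset of 16, and that in hypoxia was 6 with the offset. Over all 6890 genes the counts were 2008, 369 and 440 in the same order. In normoxia the leading genes were Mlkl, the effector of necroptosis (36.0 and 169.6, a log2 difference of 2.24), Rnf31, the catalytic subunit of the linear ubiquitin ligase (1.80), Cflar, which encodes the caspase-8 inhibitor c-FLIP (1.80), Rhbdf2, which encodes a rhomboid protein needed for TNF shedding (1.22), and Tnfaip3, which encodes the NF-kB inhibitor A20 (1.19). In hypoxia they were Mlkl (20.5 and 201.7, 3.30), Cflar (2.40), Rnf31 (2.05), the adaptor gene Traf1 (1.93) and the NF-kB inhibitor gene Nfkbie (1.81). The 3 Cflar probe sets gave 1.69 to 1.80 in normoxia and 1.98 to 2.40 in hypoxia.

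For hypoxia against normoxia in media 1 signalling gene was higher and 2 were lower (median -0.03), or 2.08% and 4.17%, near the all-gene shares of 3.74% and 5.36%. With poly I:C 1 was higher and 0 lower (median 0.08), against 3.0% and 3.21% over all genes. Traf6, an adaptor shared by Toll-like receptors and several TNF receptors, read 20.3 and 23.2 in normoxia and 62.5 and 56.0 in hypoxia, differences of 1.62 and 1.27. Traf5 (-1.23) and Cflar (-1.22) were lower in media, and the other 2 Cflar probe sets gave -0.58 and -0.64. Centring on reference genes left 0 lower, against 178 of 6890 over all genes. With both treatments 11 were higher and 1 lower (median 0.36), against 11.6% and 14.0% over all genes, or 17 and 0 with cyclic loess, led by Mlkl (2.49), Rnf31 (2.18), Traf6 (1.46), Tnfaip3 (1.41) and Nfkbie (1.33), and Tnfaip2 was the lower one (-1.02). Over all genes cyclic loess gave 962 higher and 766 lower of 6923 for both treatments. In the difference of differences 2 signalling genes were higher, the necroptosis kinase gene Ripk3 (1.12) and Mlkl (1.07), a share of 4.17% that lies near the all-gene 4.47%. After centring on reference genes 0 were higher and 3 lower, with Ripk3 at 0.57 and Mlkl at 0.51, and with the offset of 16 0 were higher. Of all 6890 genes, 100 were higher and 1105 lower after centring, and 99 were higher with the offset.

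**Figure D4:**
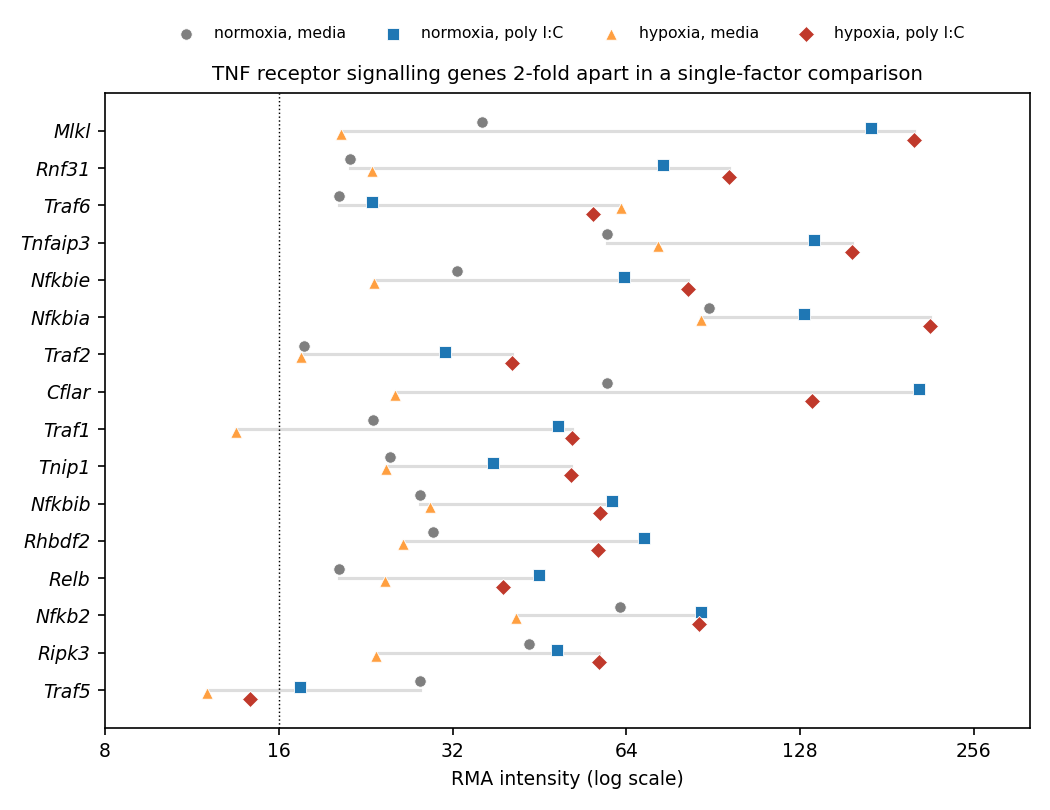
RMA intensity on a log scale (x axis) of the 16 listed TNF receptor signalling genes that differed 2-fold in at least 1 single-factor comparison (rows), with 1 point per array, set apart vertically for legibility; the dotted line marks 16. For Mlkl, Rnf31 and Tnfaip3 both poly I:C arrays lie to the right of both media arrays, and for Traf6 both hypoxic arrays (62.5 and 56.0) lie to the right of both normoxic ones (20.3 and 23.2).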

How the data were processed

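Dendritic cells of 4 conditions were profiled with 1 Affymetrix Mouse Gene ST 1.0 array each. The authors normalized the arrays with RMA in Affymetrix Expression Console, per the submitters' processing notes, and deposited the intensities on a linear scale for 28998 probe sets. RMA includes quantile normalization between arrays, so a shift common to most genes is removed. Neither tool versions nor the annotation's genome build were given in the sources used here. A text table and a series matrix hold the same intensities, with 0 values differing. The text table also holds 4 columns of Z-scores and derived columns, not used.

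Probe sets were named by accession, current symbol or synonym with the RefSeq table of GRCm38.p6 (18694, 2210 and 1750) or kept their symbol (2270), which gave 22221 genes. Those with several genes (163) or none (3911) were left out. The probe set with the highest mean stood for a gene. Log2 differences were formed with Python 3.11.15 and cyclic loess with limma 3.58.1. The steps that form differences were tested on simulated data, with changes well above 2-fold planted in bright genes only. Changes near 2-fold, dim genes, the scalings and the offset were not part of that test. Members 2-fold apart in a single-factor comparison were named, with Tnf, Fas, Ltbr, Tnfrsf1a and Tnfrsf1b, and up to 5 genes per comparison of the other lists. The values of Tnfsf9, Tnfsf18 and Tnfrsf18 below the floor, Tnfaip2 and the single marker genes fall outside that rule and were chosen after their values were seen. Members, lists and floor were chosen with earlier results of these data known. Alternatives were floors of 64 and none, a 3-fold threshold, averaged probe sets, cyclic loess, centring on 10 reference genes and an offset of 16. Centring took from each array the median log2 level of the 10 reference genes. On every array that median lay midway between Hprt and Gusb, so the constant followed these genes alone. In normoxia with media and with poly I:C, then hypoxia likewise, Hprt read 92.3, 49.6, 87.3 and 92.1. Gusb read 127.0, 79.4, 81.7 and 56.3.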

Additional observations from a re-analysis of the deposited data

Results flagged for a closer look

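The differences of Fas had opposite signs under the same treatment, though only that for poly I:C in hypoxia passed 2-fold. For poly I:C in normoxia its size was under the robust SD of 0.31 per single difference. Hypoxia against normoxia was -0.74 in media and 0.78 with poly I:C, and poly I:C against media was -0.25 in normoxia and 1.27 in hypoxia, so that the difference of differences was 1.52. With 1 array per condition the difference was not tested. It was 1.53 with cyclic loess scaling, and 0.96 both after centring on reference genes and with an offset of 16. After that centring, poly I:C against media in normoxia turned to 0.54. All 4 intensities, 18.0 to 43.4, are dim.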

How the results depend on the processing

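No paired analysis was possible because each condition has 1 array. None of the values of named members and signalling genes that passed 2-fold changed sign under cyclic loess scaling, centring on reference genes or the offset of 16. Averaging probe sets was run for the members only, each of which has 1 probe set, and so could change none of their values. Of the 24 member values past 2-fold in single-factor comparisons, 23 kept it with cyclic loess, 22 with centring and 14 with the offset, which shrinks dim genes by construction. Centring took the all-gene median from -0.10 to 0.69 for poly I:C in normoxia, from -0.07 to 0.29 for hypoxia in media, from -0.06 to -0.26 for hypoxia with poly I:C, from -0.11 to 0.12 for poly I:C in hypoxia and from -0.14 to 0.45 for both treatments, and cyclic loess moved it to 0.03, -0.05, -0.03, 0.02 and 0.01. At a floor of 64, 9 members were left in place of 18, with 2 higher and 1 lower for hypoxia in media, 0 lower for hypoxia with poly I:C, 4 higher and 1 lower for both treatments, 0 higher in the difference of differences and a median of 1.40 for poly I:C in normoxia. Over all 2715 genes at that floor the counts were 145 and 184, 100, 511 and 391, and 160 in the same order. With no floor the medians for poly I:C were 0.26 in normoxia and 0.12 in hypoxia, and 0.33 for both treatments. At a 3-fold threshold, 5 were higher for poly I:C in normoxia, 0 lower for hypoxia in media, 1 higher and 0 lower for hypoxia under poly I:C, 0 lower for both treatments and 0 higher in the difference of differences. Over all 6890 genes the 3-fold counts were 309, 120, 56 and 43, 338, and 95 in the same order. With cyclic loess 1 member was lower for hypoxia in media and 1 for both treatments, against 357 and 766 of 6923 over all genes. With centring 13 were higher for poly I:C in normoxia (median 1.44), 0 lower for hypoxia in media (median 0.25), 3 lower for hypoxia with poly I:C, 12 higher and 0 lower for both treatments (median 1.28), and 0 higher and 7 lower in the difference of differences (median -0.69). Over all 6890 genes the centred counts were 2008, 178, 418, 1698 and 336, and 100 and 1105 in the same order. With the offset 5 members were higher for poly I:C in normoxia, 0 lower for hypoxia in media, with poly I:C and for both treatments, and 0 higher in the difference of differences. Over all 6890 genes the offset counts were 369, 112, 52, 388 and 99 in the same order. The median for hypoxia in media also turned to 0.07 without a floor. In the signalling list, whose alternatives were chosen after seeing the data, centring gave 24 higher with poly I:C in normoxia, 0 lower for hypoxia in media, 23 higher and 0 lower for both treatments, and 0 higher and 3 lower in the difference of differences. There cyclic loess gave 17 higher and 0 lower for both treatments. The offset gave 4 and 6 higher for poly I:C in normoxia and hypoxia, 0 lower for hypoxia in media, 0 higher for hypoxia with poly I:C, 5 higher and 0 lower for both treatments, and 0 higher in the difference of differences. The offset, the floors and the threshold act by construction, and centring shifts every gene of a comparison by the same constant. The constant came from the reference level midway between Hprt and Gusb, not from the median difference of the reference genes. For poly I:C in normoxia Hprt differed by -0.89 and Gusb by -0.68, and for hypoxia with poly I:C by 0.89 and -0.495. The 9 reference genes reaching 16 had median log2 differences of -0.68 and 0.04 in these comparisons, against -0.10 and -0.06 for all genes. Why the reference genes differed was not tested, nor was the cause of the shifts with cyclic loess. Without replicates, the number of arrays, 1 per condition, limits precision. Members below 16 were left out of the counts except where no floor was used, and no conclusion rests on their differences.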
